A study of Mus musculus with 2 samples.

Results

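Mir744, Mir652, Mir149, Mir330 and Mir324 are 5 microRNA genes that are abundant in small RNA from mouse hippocampus. By reads assigned to a single gene, they rank among the 20 most abundant of 2202 annotated microRNA genes. They were chosen by their level in these libraries, together with an interest in genes that are less studied than the let-7 family and other leading genes, so their high level is described and not tested. The data are read counts from 2 libraries of wild-type (WT) female mice of the strain B6NCrl, made from tissue that the labels call a layer of hippocampus without saying which. Both libraries belong to a single group and are biological replicates 2 and 1 of it. Each has a biosample record of its own, but both are under the same donor record. The age field holds no value, no treatment or allele is named, and whether the libraries come from different animals is not stated, so the spread between the libraries may be technical. There is no second group, and the comparison between replicate 2 and replicate 1 is one between libraries and not between conditions.

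A microRNA is cut from a folded hairpin within a longer primary transcript, first by Drosha in the nucleus and then by Dicer in the cytoplasm. This leaves a short duplex, one strand of which guides an Argonaute protein to messenger RNAs that match its seed, bases 2 to 8. A hairpin inside a host gene on the same strand can be made from the host's own transcript, so its place in the host is part of its biology. Mir324 is the best known of the 5 in this tissue: in mouse hippocampus miR-324-5p targets Kcnd2, which encodes a potassium channel of neuronal dendrites. In human cells miR-744-5p is known to target the growth factor gene TGFB1, and the 3p arm of human miR-149 to target the kinase gene GSK3A.

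The hairpins are shown because they carry the identity of what was counted, with the mature arms in capitals, 5p arm first. They were read from RefSeq (GRCm38.p6, the assembly called mm10), and all 5 members matched by symbol with a sequence identical to the GENCODE M21 transcript.
Mir744, chr11:65734733-65734832, minus strand: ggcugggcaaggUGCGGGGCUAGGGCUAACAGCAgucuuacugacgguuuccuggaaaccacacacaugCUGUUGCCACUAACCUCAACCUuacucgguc
Mir652, chrX:142739000-142739097, plus strand: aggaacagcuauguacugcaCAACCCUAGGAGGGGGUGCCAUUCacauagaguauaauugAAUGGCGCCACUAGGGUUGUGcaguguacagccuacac
Mir149, chr1:92850378-92850443, plus strand: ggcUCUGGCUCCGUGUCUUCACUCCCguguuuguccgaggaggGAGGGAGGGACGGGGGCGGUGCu
Mir330, chr7:19181465-19181562, plus strand: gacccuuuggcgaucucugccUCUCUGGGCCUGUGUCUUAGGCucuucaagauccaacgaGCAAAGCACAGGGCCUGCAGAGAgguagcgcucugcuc

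For Mir324, at chr11:70012043-70012131 on the plus strand, the mature arms are given here with the others, the seed in capitals.
miR-744-5p: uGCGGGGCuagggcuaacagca
miR-744-3p: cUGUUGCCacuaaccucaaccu
miR-652-5p: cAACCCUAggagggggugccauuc
miR-652-3p: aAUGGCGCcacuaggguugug
miR-149-5p: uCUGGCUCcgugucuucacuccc
miR-149-3p: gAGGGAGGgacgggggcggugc
miR-330-5p: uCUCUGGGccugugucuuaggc
miR-330-3p: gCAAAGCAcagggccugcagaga
miR-324-5p: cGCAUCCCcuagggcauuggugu
miR-324-3p: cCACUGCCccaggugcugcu

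The 10 arms have 10 different seeds, so the members do not form a seed family. The arms are rich in G and C, up to a GC content of 81.8% in miR-149-3p, whose bases are 68.2% G. Whole hairpins had 56.0% GC at Mir744, 68.2% at Mir149, 58.2% at Mir330 and 58.4% at Mir324. Only Mir652 was below the median of 52.8% over the 466 genes whose mean count was at least 10, called tested genes below. Over the 20 most abundant genes the median was 56.6%, above both Mir744 and Mir652. Mir149 also has the shortest hairpin, 66 bases, while the other 4 span 89 to 100 bases and the median of tested genes is 81.0. Its predicted minimum free energy is -0.56 kcal/mol per base, the lowest of the 5, whose other values run from -0.50 at Mir652 to -0.41 at Mir324 around a median of -0.43 over tested genes. No gene-level count tells the 5p arm from the 3p arm, so which arm supplied the reads was not measured here.

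The members' hairpins are distinct from all other annotated hairpins. The longest stretch that any of them shares with another hairpin is 15 bases, at Mir744 and Mir149, followed by 14 at Mir652 and 12 at Mir330 and Mir324. A read is lost from the counts when it maps to several places, and 95 of the 466 tested genes (20.4%) share 18 or more bases with another hairpin. None of the 5 members does, against 5 of the 20 most abundant genes. The ranks and shares given here cover only reads assigned to a single gene. Genes with copies elsewhere may therefore be undercounted against the members. The rest of the genome was not searched for copies.

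In place, 3 of the 5 genes are intronic in every host transcript that spans them, and the other 2 are not. Mir744 lies in Map2k4, which encodes a kinase that activates JNK in stress signalling. In the principal transcript Map2k4-201 it sits in intron 3 of 10, which is 15588 bases long, and starts 359 bases after the preceding exon. Of the 7 Map2k4 transcripts, 5 span the hairpin and all 5 have it in an intron. Mir652 lies in Tmem164, which encodes a membrane protein, on the X chromosome. All 7 of its spanning transcripts, of 9, have it in an intron, which in Tmem164-201 is intron 2 of 6 and 69090 bases long. Mir149 lies in Gpc1, the gene of glypican 1, a heparan sulfate proteoglycan of the cell surface. It is in intron 1 of 8, a stretch of 21249 bases, of Gpc1-201, the only one of 5 transcripts that spans it.

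Mir330 lies in Eml2, a gene of the EMAP family of microtubule-associated proteins, 0.295 kb from the start of the principal transcript Eml2-203. There it is in intron 1 of 18, which is only 485 bases long. Of 7 spanning transcripts, 6 have it in an intron. The seventh, the noncoding Eml2-205, has an exon from 19181332 to 19181548 that holds both mature arms. The 3p arm ends at 19181547, so the exon ends 1 base beyond it, and the last 14 bases of the hairpin lie outside the exon.

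Mir324 goes against the description of these genes as intronic. On its own strand it lies in the last exon, number 16 of 16, of Dvl2-207 and Dvl2-202, transcripts of the Wnt signalling gene Dvl2 (dishevelled 2), within the 3′ untranslated part. The exon is 1425 bases long and ends 170 bases after the hairpin. The other 5 of 7 Dvl2 transcripts do not span it. On the opposite strand it lies in intron 11 of 19 of Acadvl-202, from the gene of very-long-chain acyl-CoA dehydrogenase, a mitochondrial enzyme of fatty acid oxidation. That intron is 415 bases long and runs against the microRNA, so the Acadvl transcript does not hold the hairpin. The map of hairpins in their hosts shows these places, and no library here measured the host transcripts themselves.

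**Figure D1:**
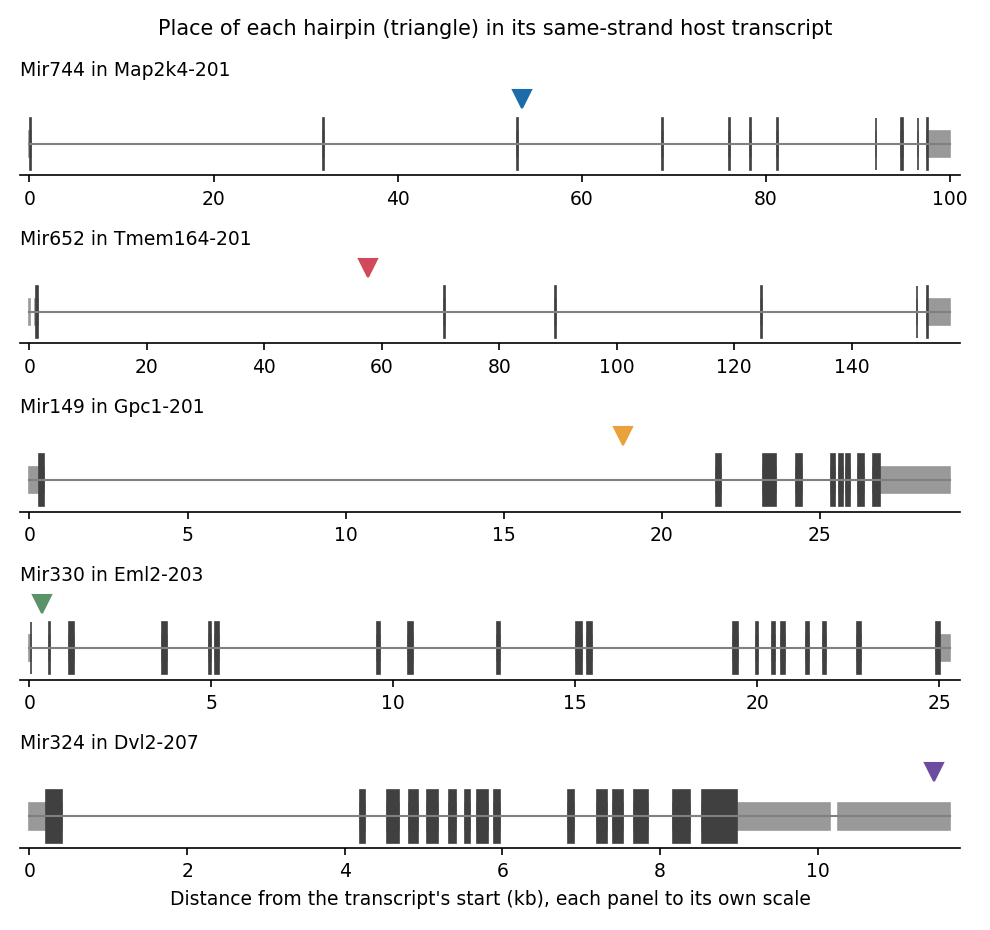
Each panel draws one same-strand host transcript from its start (left) to its end, in kb on its own scale, with coding exons as tall dark boxes, untranslated exons as low grey boxes and the hairpin as a triangle. Mir744, Mir652 and Mir149 lie in long introns, at 53.5, 57.6 and 18.7 kb, Mir330 lies 0.295 kb from the start, and Mir324 lies in the terminal exon at 11.4 kb.

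Every member stands alone. None of the 6 genes in which a member lies on either strand holds another annotated microRNA gene, and the nearest microRNA gene is between 31.2 kb away, for Mir324, and 667 kb away, for Mir744. These neighbours had few counts. On the left and right of Mir744, Gm25991 and Mir6923 had 0 counts in both libraries, where a count of 0 allows up to 0.508 CPM in replicate 2 and 0.447 CPM in replicate 1. Mir3475, 2428 kb from Mir652, had 1251 counts in replicate 2 and 1494 in replicate 1, the highest of the 10 neighbours, and Gm44351, on its other side, had 0 in both. Mir6900, on the left of Mir149, had 64 and 59 counts, and Mir6901, on the right, 0 and 2. Mir3100 beside Mir330 had 10 and 8 counts, and Mir343 had 0 in both. Gm44349 and Mir497b beside Mir324 had 1 and 0 counts and 2 and 4 counts, each pair in replicate 2 and then in replicate 1.

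The libraries were of like depth. Sense counts of microRNA genes came to 5901107 of 14300757 reads in replicate 2 and to 6713867 of 15794475 reads in replicate 1. Multimapping reads, which are given to no gene, were 45.9% in replicate 2 and 43.9% in replicate 1. Markers of hippocampal cells were counted, though not all of them well. Of a neuronal list (Mir124a, Mir128 and Mir138 copies, Mir132 and Mir212), 8 of 9 genes had counts in both libraries, with Mir124a-2 at 0. The remaining Mir124a copies had too few counts to be tested genes. Reads that map to several copies are given to no gene, so these counts do not show how much Mir124a was present. The Mir128 and Mir138 copies, Mir132 and Mir212 were all tested genes. All 5 genes of an astrocyte list had counts in both libraries. In bulk tissue, fewer cells of a type and less RNA per cell cannot be told apart.

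Levels are CPM, the sense counts of a gene per 1000000 sense counts of all microRNA genes in the library. The 5 genes together held 501046 counts, or 8.49% of the total, in replicate 2, and 605196 counts, or 9.01%, in replicate 1, a mean of 8.75% ± 0.370 (SD, n = 2). With no molecular identifiers, reads are not independent molecules, and the exact 95% intervals below cover counting error only.

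Mir744 had 42439 CPM in replicate 2 (interval 42277 to 42602) and 38056 CPM in replicate 1 (interval 37911 to 38201). Its mean was 40247 ± 3100 CPM (SD, n = 2), and it ranked 6 in replicate 2 and 7 in replicate 1. It was the highest of the 5 in both libraries and its coefficient of variation over the 2 CPM values was 7.70%, the smallest of the 5 on this scale.

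Mir652 had 11757 CPM in replicate 2 (interval 11670 to 11844) and 18551 CPM in replicate 1 (interval 18449 to 18654). Its mean was 15154 ± 4804 CPM (SD, n = 2), with ranks of 14 and 11. It was the second of the 5 in both libraries and its coefficient of variation over the 2 CPM values, 31.7%, was the largest of the 5 on this scale. Both ranks depend on scaling by totals: under the TMM scaling used below, Mir330 differed least between the libraries and Mir324 most.

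Mir149 had 9560 CPM in replicate 2 and 12867 CPM in replicate 1, a mean of 11214 ± 2338 CPM (SD, n = 2). Mir330 had 9787 CPM in replicate 2 and 12079 CPM in replicate 1, a mean of 10933 ± 1620 CPM (SD, n = 2). Mir324 went the other way, with 11364 CPM in replicate 2 and 8589 CPM in replicate 1, a mean of 9977 ± 1963 CPM (SD, n = 2). These 3 means lie closer together than the spread of each gene over the libraries, so their order is not resolved. The gap between the means of Mir652 and Mir149 is also smaller than the SD of Mir652, whereas Mir744 exceeds all 4 others by more than any SD. In replicate 2 the order was Mir324, Mir330, Mir149, and in replicate 1 it was Mir149, Mir330, Mir324.

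**Figure D2:**
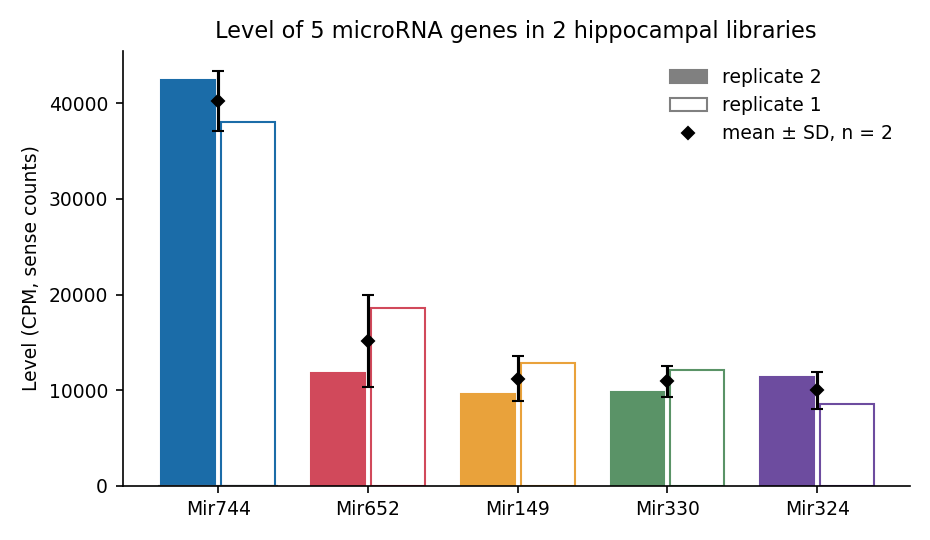
Bars give the level in CPM of each gene in replicate 2 (filled) and replicate 1 (open), with the mean and SD over both as a diamond with error bars. Mir744 stands above the other 4 in both libraries, and Mir744 and Mir324 are higher in replicate 2 while Mir652, Mir149 and Mir330 are lower there.

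Ratios of counts within a library do not depend on how libraries are scaled. Mir744 had 3.61 times the counts of Mir652 in replicate 2 and 2.05 times in replicate 1, and 3.73 times the counts of Mir324 in replicate 2 and 4.43 times in replicate 1. Mir652 had 1.03 times the counts of Mir324 in replicate 2 and 2.16 times in replicate 1, the largest move among the 10 pairs of members. Mir149 and Mir330 stayed closest to each other, at 0.977 times in replicate 2 and 1.07 times in replicate 1. Of the 10 pairs, 7 kept their order between the libraries, and the 3 that turned were those among Mir149, Mir330 and Mir324.

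At the edge of the 20 most abundant genes, Mir324 and Mir99b were just inside with means of 9977 and 9951 CPM, and Mir382 and Mir433 just outside with 9847 and 9724 CPM. Their SDs of 744 to 4068 CPM exceed these gaps. Taken singly, Mir324 ranked 16 in replicate 2 and 26 in replicate 1, so its place among the 20 rests on replicate 2. Mir149 ranked 20 and 16, and Mir330 ranked 19 in both.

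Genes nearest in level were sought outside the members, by distance in log2(CPM + 1) over the 2 libraries. The gene most like Mir744 was Mirlet7d of the let-7 family, at 39721 CPM in replicate 2 and 39215 in replicate 1 (distance 0.10). For Mir652 it was Mir132, a microRNA induced by neuronal activity, at 12540 and 15073 CPM and a distance of 0.31. Mir99b was the nearest outside the members to both Mir149 (0.30) and Mir330 (0.21), at 9425 and 10478 CPM. Mir149 and Mir330 were nearer to each other, with log2 ratios of -0.03 in replicate 2 and 0.09 in replicate 1. Mir328, at 9846 and 9321 CPM, was the nearest to Mir324 (0.24). These are likenesses of level over 2 libraries only.

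The libraries were then compared gene by gene, as log2 ratios of replicate 2 over replicate 1 with edgeR's TMM scaling, which aligns the bulk of genes rather than the totals. Mir324 was higher in replicate 2, at 0.60 (counting SE 0.00819), a 1.52-fold difference, and Mir744 was higher at 0.36 (SE 0.00406), or 1.28-fold. Mir652 was lower in replicate 2, at -0.46 (SE 0.00683), Mir149 at -0.23 (SE 0.00781) and Mir330 at -0.11 (SE 0.00786). All 5 passed a 2-sided Fisher exact test on counts with Benjamini-Hochberg adjustment over the 466 tested genes, at p-values below the smallest number the software represents. So did 57.5% of all tested genes, including each of the 20 most abundant, so passing at this depth says little about a member.

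The directions held under TMM, totals and DESeq2 size factors. With this rule of one sign, 2 members were higher in replicate 2, where 18% of tested genes were called, and 3 were lower, where 35% were called. A further 4.51% passed with a sign that depends on the scaling. An exact binomial test at the TMM scaling, chosen after seeing the data, again called all 5 members, with the same signs. It called 56% of tested genes, 27.5% higher and 28.5% lower, so the excess of lower calls under the first rule depends on the scaling. The median log2 ratio of all tested genes lay at 0.02 with TMM and -0.18 with totals, and that of the members at -0.11 with TMM. No member differed by 2-fold or more, against 13.5% of tested genes.

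Set against the spread of all genes, the members' differences were of ordinary size. The median size of a log2 ratio was 0.36 over the members, 0.35 over all tested genes and 0.34 over the 20 most abundant. Of the 466 tested genes, 153 had a larger ratio in size than Mir324, 195 a larger one than Mir652, 231 than Mir744, 305 than Mir149 and 393 than Mir330. With 1 library on each side, no difference here has a replicate check.

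**Figure D3:**
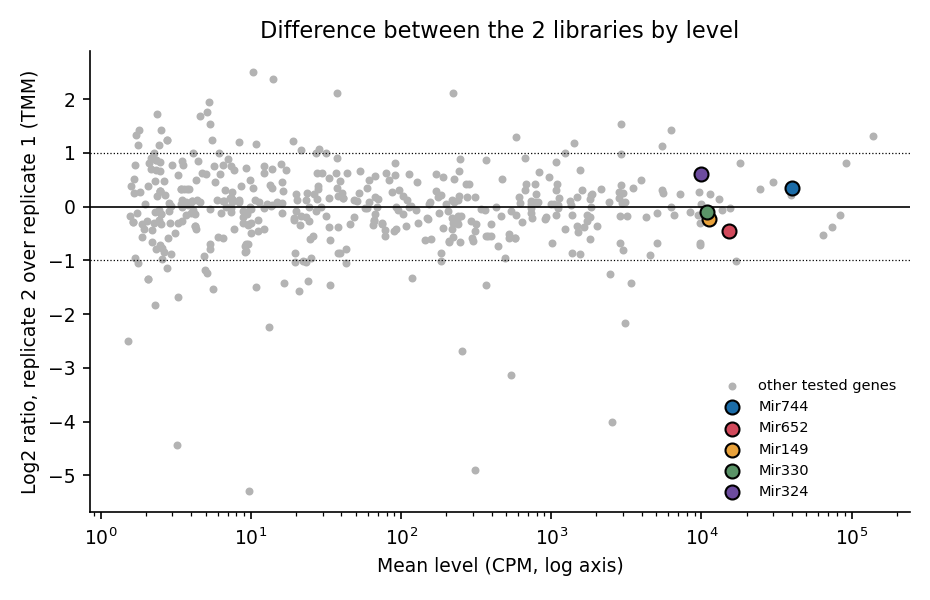
Each point is a tested gene, with its mean level in CPM on a log axis and its log2 ratio of replicate 2 over replicate 1 under TMM, and coloured points are the 5 members. All 5 lie between the dotted lines that mark a 2-fold difference, from -0.46 at Mir652 to 0.60 at Mir324.

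Summed levels of cell type lists moved between the libraries as well. Oligodendrocyte genes (Mir219a-1, Mir219a-2, Mir338 and Mir219b, the last at 0) had 3193 CPM in replicate 2 and 7078 CPM in replicate 1. Endothelial Mir126a had 2897 CPM in replicate 2 and 6191 CPM in replicate 1, with Mir126b at 0. Mural genes, 2 of 3 of them counted in both libraries, had 1504 CPM in replicate 2 and 2480 CPM in replicate 1. The 3 erythrocyte genes had 32.7 CPM in replicate 2 and 73.1 CPM in replicate 1. The choroid plexus and ependyma list, with Mir449b and Mir449c at 0, had 1744 CPM in replicate 2 and 2050 CPM in replicate 1. The neuronal list had 28416 CPM in replicate 2 and 27494 CPM in replicate 1. In the same order, the astrocyte list had 56863 and 49632 CPM, and the microglia and leukocyte list, with 6 of 6 genes counted, 2246 and 2028 CPM. Several of these sums hold genes that went opposite ways. Mir204, most of the choroid plexus sum, had 1653 CPM in replicate 2 and 1532 CPM in replicate 1, while Mir34c of the same list had 61.2 CPM and 451 CPM. Mir150 of leukocytes had 1815 CPM in replicate 2 and 1303 CPM in replicate 1, while Mir146 had 380 CPM and 658 CPM. Among neuronal genes Mir128-1 had 8772 CPM in replicate 2 and 3723 CPM in replicate 1, while Mir132 and both Mir138 copies were lower in replicate 2, and in the astrocyte list Mir125a was higher and Mir29a lower. Mir145a of mural cells had 177 CPM in replicate 2 and 165 CPM in replicate 1, against the direction of its list's sum, and did not pass the exact test. In the oligodendrocyte list Mir219a-2 had 1671 CPM in replicate 2 and 5126 CPM in replicate 1, while Mir338 moved less, with 1512 and 1941 CPM. Mir652, Mir149 and Mir330 were lower in replicate 2, as were the oligodendrocyte, endothelial, mural, erythrocyte and choroid plexus sums. Mir744 and Mir324 were higher there, as were the neuronal, astrocyte, and microglia and leukocyte sums. The part of these cells in the members' differences was not tested. The adapter trimming document also differs between the libraries, and it cannot be told apart from the biosample.

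By their place, the members belong to classes that are large among microRNA genes. An intron of a protein-coding gene on the same strand, in every spanning transcript, holds 733 of the 2202 annotated genes and 202 (43.3%) of the 466 tested genes. Most of these are low: the median level of the 202 was 17.8 CPM, against 37.7 CPM over all tested genes. Mir744, Mir652 and Mir149 were the third, sixth and seventh of them by mean level, after Mir139 and Mirlet7g, and with Mirlet7e and Mir23b between Mir744 and Mir652. Of the 20 most abundant genes, 8 belong to this class. Genes that overlap an exon of a protein-coding gene in at least 1 transcript number 246, of which 70 were tested, with a median of 11.5 CPM. Mir330 and Mir324 are in this class, with Mir125a in Spaca6 the only other one of the 20.

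**Figure D4:**
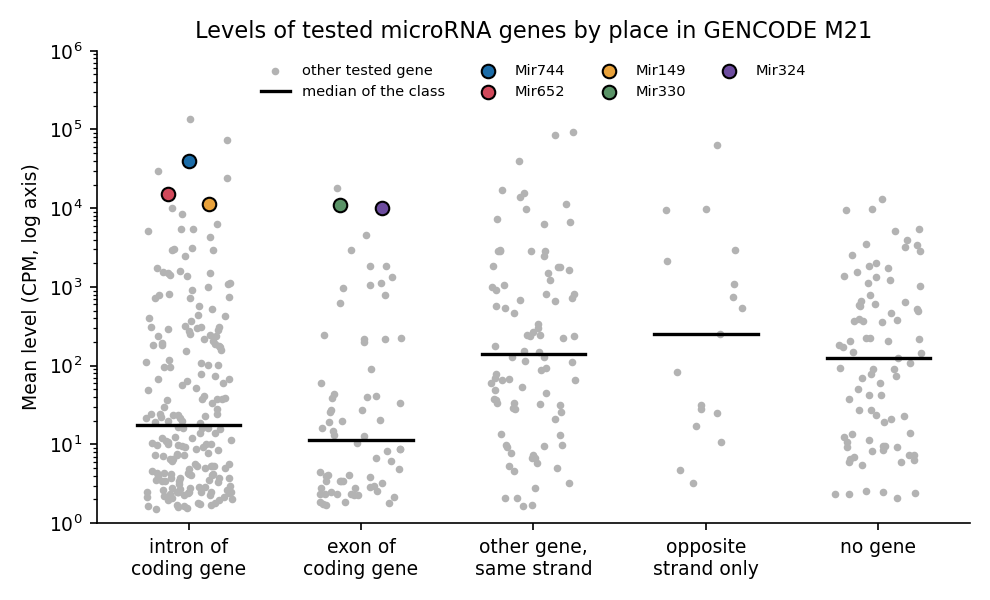
Points are tested genes by place in the annotation, with the mean level in CPM on a log axis, a bar at each class median and the 5 members in colour. The members stand between 9977 and 40247 CPM, above the medians of 17.8 CPM (intron) and 11.5 CPM (exon) of their classes.

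The class of intronic genes held 45.7% of counts in replicate 2 and 38.7% in replicate 1, but this includes Mir139, whose log2 ratio was 1.31. Its median log2 ratio was 0.05 over 202 genes, of which 34 were called higher and 60 lower in replicate 2. The class of exonic genes had a median of 0.09 over 70 genes, with 9 called higher and 10 lower. Over all 466 tested genes, the Fisher rule called 18% higher and 35% lower, and its excess of lower calls depends on the scaling. In each class the members went both ways, with Mir744 higher and Mir652 and Mir149 lower among the intronic genes, and Mir324 higher and Mir330 lower among the exonic ones.

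Seeds were compared with those of all mature mouse microRNAs in the RefSeq table. Of the 10 arms, 7 have a seed found in no other gene, and 3 share theirs with 6 other genes in all. The seed of miR-330-5p, CUCUGGG, is that of miR-326-3p from an intron of Arrb1, the gene of beta-arrestin 1. Both arms are shown, with the seed in capitals.
miR-330-5p: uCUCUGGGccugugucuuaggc
miR-326-3p: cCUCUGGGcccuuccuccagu
Mir326 had 5599 counts, or 949 CPM, in replicate 2 and 7053 counts, or 1051 CPM, in replicate 1, with a mean of 999.7 ± 71.9 CPM (SD, n = 2). Mir330 had 10.3 times its counts in replicate 2 and 11.5 times in replicate 1. The count of a gene covers both arms, so how much of the shared seed each gene supplied was not measured. The log2 ratio of Mir326 was 0.05 (SE 0.03) under TMM and -0.15 under totals, so its direction depends on the scaling.

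The other seed relatives were low. The G-rich seed of miR-149-3p, AGGGAGG, is shared with miR-7016-5p, at 22 counts in replicate 2 and 23 in replicate 1, and with miR-1943-5p, at 12 and 20 counts, neither of which passed the exact test (adjusted p = 0.909 and 0.486). It is also that of miR-6967-5p, whose genes Gm27740 and Gm27775 share 58 bases and had 0 counts in both libraries. Reads that map to both would not be counted, and whether there were any was not measured. The seed of miR-330-3p, CAAAGCA, occurs in miR-6240, at 4 counts in replicate 2 and 7 in replicate 1.

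Reads on the opposite strand were nearly absent. Mir744, Mir652, Mir149 and Mir330 had 0 such counts in both libraries, against up to 250437 and 255500 sense counts for Mir744. Mir324, the one member that lies opposite another gene, had 5 opposite-strand counts beside 67062 sense counts in replicate 2, and 0 beside 57664 in replicate 1.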

How the data were processed

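Values deposited by the authors are raw counts of reads for each microRNA gene of mm10 and GENCODE M21, per the notes that come with each library. Per the labels, RNA under 30 nt was sequenced and adapters were trimmed after a document that differs between the 2 libraries. Which aligner and counter were used is not given in the sources used here. Columns carry no names. Their values show them to be counts without strand, on the gene's strand (sense, used here) and on the opposite strand. The 4 read classes stayed out of library sizes.

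Computed here were CPM, mean ± SD over 2 libraries, exact Clopper-Pearson intervals at 95%, and log2 ratios after adding 0.5 counts, scaled by TMM (edgeR 4.0.16) over the 466 genes whose mean count was at least 10. A 2-sided Fisher exact test per gene was adjusted by Benjamini-Hochberg at 0.05. DESeq2 1.42.0 size factors and totals were alternatives. The floor for a count of 0 was 3 counts. With 1 group, no quasi-likelihood test between conditions was possible. Hairpins were folded with RNAfold 2.7.2. Host classes used all GENCODE transcripts. Both tests were tried on simulated data with counting error only, which holds no other variation between libraries. The pass condition was set for the exact binomial test at a known scaling and not for the Fisher test.

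Genes named are the 5 members, those at ranks 19 to 22, seed relatives, microRNA genes in the same hosts, nearest neighbours, nearest in level, and genes of the cell type lists. Further leading genes of the host classes and Mir139 were named after their values were seen. Members and lists were chosen with earlier results of these data known.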

Additional observations from a re-analysis of the deposited data

Results flagged for a closer look

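Mir324 had 5 counts on the strand opposite to it in replicate 2, which exceeds the 3 counts that a count of 0 allows, in a column that the comparisons do not use. Replicate 1 had 0. This strand is that of Acadvl, and the reads are few beside 67062 sense counts. The cause was not tested.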

How the results depend on the processing

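The Fisher exact test compares shares of the library total, so it is tied to scaling by totals. The exact binomial test is its counterpart at the TMM scaling. All 5 members passed the Fisher exact test with no filter on low counts, with a mean of 50 or more counts and on counts without strand. All 30 recomputed log2 ratios of the 5 members kept their sign. They ranged from 0.16 to 0.42 for Mir744, -0.66 to -0.39 for Mir652, -0.43 to -0.16 for Mir149, -0.30 to -0.04 for Mir330 and 0.40 to 0.67 for Mir324, so the size for Mir330 depends on the scaling. Of the 466 tested genes, 268 passed the exact test and 261 the exact binomial test. The exact test passed 264 of 787 genes with no filter on low counts and 252 of 328 with a mean of 50 or more. It passed 248 of 441 on counts without strand, and 201 of 371 once genes sharing 18 or more bases were left out. The share that passed thus depends on the filter. Of 15 levels recomputed with another total or column, 8 moved by less than 1 SD. Leaving genes that share 18 or more bases out of the total raised the levels to 61276 CPM for Mir744, 23153 for Mir652, 17116 for Mir149, 16679 for Mir330 and 15173 for Mir324, and leaving out Mir139 raised Mir744 to 46990 and Mir330 to 12646 CPM, in each case because the total is smaller. Without replicate 1 and without replicate 2, levels were 42439 and 38056 CPM for Mir744, 11757 and 18551 for Mir652, 9560 and 12867 for Mir149, 9787 and 12079 for Mir330, and 11364 and 8589 for Mir324. No paired analysis was possible because there is 1 group.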
